A study of Mus musculus with 2 samples.

Results

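Sodium and calcium pump genes were described across the cell types of the entorhinal cortex, the cortical field through which most signals pass into and out of the hippocampus. The 7 genes, picked by symbol out of the 31053 genes counted, were 2 beta subunits of the sodium pump (Atp1b1 and Atp1b2), the calcium pump of the endoplasmic reticulum Atp2a2, and the 4 calcium pumps of the plasma membrane (Atp2b1, Atp2b2, Atp2b3 and Atp2b4). All 7 were found in both libraries. The tissue came from male APP/PS1 mice, which carry mutant amyloid precursor protein and presenilin transgenes and deposit amyloid in the brain. The treated group drank N-oleoyl-leucine (C18:1-Leu, named OLE here) at 25 mg/kg/day, and the control group drank the DMSO vehicle, both in alkaline water. The treatment started at 15 months of age and the tissue was taken at 18 months. Each condition was a single library of nuclei pooled from 5 mice, so the spread between animals cannot be seen, no test of OLE against vehicle was possible, and wild-type mice were not analysed here.

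The sodium pump moves sodium out of the cell and potassium in, and so restores the gradients that action potentials and transporters run down. It is built from a catalytic alpha subunit, which was not analysed here, and a beta subunit that helps the pump fold and reach the membrane. Calcium that enters a cell or is released from its stores is cleared by pumps of 2 kinds. The sarco/endoplasmic reticulum pumps (SERCA) return it to the store, and the plasma-membrane pumps (PMCA) expel it with high affinity under the control of calmodulin.

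The vehicle library held 6745 nuclei and 70845739 UMIs (unique molecular identifiers, each standing for 1 captured RNA molecule), and the OLE library held 6173 nuclei and 69485537 UMIs. The median nucleus had 3989 UMIs in vehicle and 6392 in OLE, and 14 cell barcodes occurred in both libraries. After likely doublets were left out, nuclei were clustered and named from marker genes, and a name given here means marker-like nuclei. There were 1926 glutamatergic-like nuclei in vehicle and 1859 in OLE, 324 and 351 GABAergic-like, 585 and 529 oligodendrocyte-like, 101 and 84 oligodendrocyte precursor (OPC)-like, 338 and 270 microglia-like, and 121 and 136 astrocyte-like. For vascular leptomeningeal-like nuclei (87 and 85) and endothelial and mural-like nuclei (24 and 44) no ratios are described. Unless stated, orders of cell types below leave these types out. Another 2908 and 2526 nuclei stayed unnamed, most of them in clusters of few UMIs that are described further on. Slc17a7, the vesicular glutamate transporter of cortical excitatory neurons, was found in 92.1% (vehicle) and 94.8% (OLE) of glutamatergic-like nuclei. Dsp, a marker of hippocampal granule neurons, had 1 UMI in these nuclei in vehicle and 17 in OLE.

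The pump genes differ widely in length, and since introns were counted, a longer gene can gather more UMIs. On mouse build GRCm38 (mm10), Atp1b2 (ENSMUSG00000041329, chr11:69599736-69605942, minus strand) spans 6.21 kb. Atp1b1 (ENSMUSG00000026576, chr1:164437109-164458355, minus strand) spans 21.2 kb and overlaps Nme7 on the other strand. Atp2a2 (ENSMUSG00000029467, chr5:122453513-122502225, minus strand) spans 48.7 kb. The PMCA genes are longer. Atp2b3 (ENSMUSG00000031376, chrX:73503086-73571005, plus strand) spans 67.9 kb, Atp2b4 (ENSMUSG00000026463, chr1:133699457-133801041, minus strand) 102 kb and Atp2b1 (ENSMUSG00000019943, chr10:98914406-99026143, plus strand) 112 kb. Atp2b2 (ENSMUSG00000030302, chr6:113743831-114042613, minus strand) is the longest at 299 kb and overlaps Gm15082 and Gm15083 on the other strand. Exons make up between 4.22% (Atp2b2) and 65.8% (Atp1b2) of these spans, so most of the counted length is intron in 6 of the 7 genes. Levels below are UMIs per 1000000 UMIs of the cell type in that library (counts per 1000000, CPM), with exact 95% Poisson intervals that cover counting error only. They compare a gene between cell types. Shares among related genes are given from summed UMIs and, for the cell types, also after division by gene length.

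The beta subunits divided between neurons and astrocytes. Atp1b1, the widely expressed beta1 subunit, was highest in GABAergic-like nuclei, at 370 CPM in vehicle (356 to 385) and 628 in OLE (609 to 647). In glutamatergic-like nuclei Atp1b1 stood at 219 (215 to 224) in vehicle and 344 (338 to 350) in OLE. These ranges over the libraries did not overlap, so Atp1b1 was higher in inhibitory than in excitatory nuclei in every pairing of the libraries. Vascular leptomeningeal-like nuclei, left out of this order, had 327 CPM in vehicle and 373 in OLE, a range that overlapped the GABAergic-like one. In glia Atp1b1 lay between 123 (OPC-like, vehicle) and 295 CPM (microglia-like, vehicle), and the microglia-like range of 273 to 295 fell inside the glutamatergic-like range. Removal of the profile of the clusters of few UMIs, decided on once results were known, took 38.6% (vehicle) and 36.0% (OLE) of all microglia-like UMIs. Here and below, remainders under 0 were set to 0, so 0.00 can mean that more was taken than was counted. Of the Atp1b1 UMIs of microglia-like nuclei 0.00% were left in both libraries. In oligodendrocyte-like and OPC-like nuclei 0.00% were left in vehicle, and 2.53% and 1.42% in OLE. The glial sums also held UMIs of genes listed as neuronal, and how much of these came from neurons was not tested. The summed level of 20 neuronal genes was 22330 CPM in microglia-like nuclei of vehicle and 21360 in OLE, against 81680 and 79580 in glutamatergic-like nuclei, and 11930 and 10610 in astrocyte-like nuclei.

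Atp1b2, the beta2 subunit, known also as the adhesion molecule on glia, was highest in astrocyte-like nuclei. It reached 190 CPM there in vehicle (161 to 223) and 280 in OLE (246 to 318). The next type, OPC-like nuclei, had 29.9 and 62.6 CPM, and the 4 other types lay between 12.1 and 32.0. The astrocyte-like level was 15.5 times the lowest type, taking the geometric mean of the libraries, and its range overlapped no other. With every nucleus thinned to 1000 UMIs, Atp1b2 was seen in 16.5% (vehicle) and 27.9% (OLE) of astrocyte-like nuclei and in 1.61% and 2.04% of glutamatergic-like nuclei. Before thinning the shares were 60.3% and 77.2% at a median of 5866 and 5740 UMIs, against 23.1% and 30.4% at 21094 and 19477 UMIs. A neuronal profile, which here and below is that of the glutamatergic-like nuclei of the same library, was removed from the glial sums. Of the astrocyte-like Atp1b2 UMIs 99.2% (vehicle) and 99.3% (OLE) were left, while 83.9% and 74.5% of those of Atp1b1 were left. With the profile of the clusters of few UMIs removed instead, 95.0% and 96.6% of the Atp1b2 UMIs and 21.8% and 19.8% of the Atp1b1 UMIs were left.

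Divided by gene length, the leading beta subunit was Atp1b1 in neurons and Atp1b2 in astrocyte-like nuclei. Together with Atp1b3, the remaining beta subunit gene with counts here, Atp1b1 made up 71.4% of the length-scaled beta subunit level in glutamatergic-like nuclei of vehicle and 76.2% in OLE. In GABAergic-like nuclei its share was 76.7% and 79.6%. In astrocyte-like nuclei Atp1b1 made up 19.8% and 12.8%, and Atp1b2 77.3% and 84.7%. OPC-like nuclei lay between these, with 39.9% and 54.6% for Atp1b2. Without scaling by length, Atp1b2 still led in astrocyte-like nuclei, at 48.4% of the beta subunit UMIs in vehicle (exact binomial interval 42.6 to 54.1) against 42.5% for Atp1b1, with overlapping intervals. In OLE the interval of Atp1b2 was 55.1 to 64.8% and Atp1b1 held 31.1%.

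Atp2a2, which encodes SERCA2 and refills the calcium store, was the most even of the 7 genes before any profile was removed. Its level lay between 158 CPM (OPC-like, vehicle) and 326 (microglia-like, OLE), and the highest type was 1.62 times the lowest. Microglia-like nuclei stood at 225 (195 to 258) in vehicle and 326 (285 to 370) in OLE. Astrocyte-like nuclei stood at 247 (213 to 284) and 267 (233 to 303), glutamatergic-like nuclei at 195 and 241, and GABAergic-like nuclei at 173 and 250. The ranges of the libraries overlapped between microglia-like and astrocyte-like nuclei, and between the excitatory and inhibitory nuclei. The astrocyte-like range lay just above the glutamatergic-like range. A gene with this little spread over cell types contrasts with Atp2b3, whose highest type was 29.9 times its lowest. The spread of Atp2a2 was wider with the profile of the clusters of few UMIs removed from the glial sums. Microglia-like nuclei then had 89.4 and 250 CPM, with 25.1% and 50.2% of their UMIs left. Oligodendrocyte-like nuclei had 113 and 126, OPC-like 73.8 and 119, and astrocyte-like 209 and 237. With the neuronal profile removed instead, 75.6% and 80.7% of the microglia-like UMIs were left.

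**Figure D1:**
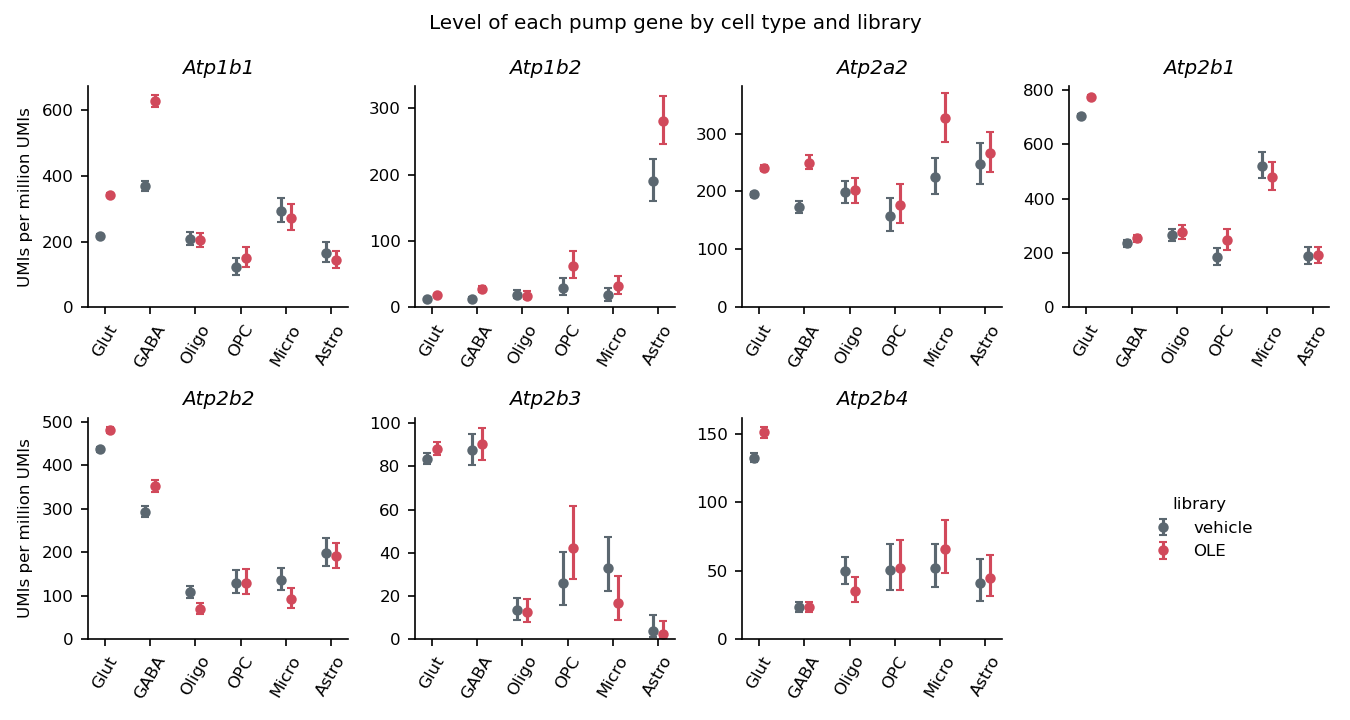
Level of each of the 7 pump genes (y axis, UMIs per 1000000 UMIs of the cell type, linear from 0) in 6 cell types (x axis: Glut glutamatergic-like, GABA GABAergic-like, Oligo oligodendrocyte-like, OPC oligodendrocyte precursor-like, Micro microglia-like, Astro astrocyte-like). Points are the vehicle (grey) and OLE (red) libraries and bars are 95% Poisson intervals. Atp1b2 stands out in astrocyte-like nuclei (190 and 280 CPM), Atp2b3 in both neuronal types (83.5 to 90.2), and Atp2b1 in glutamatergic-like nuclei (702 and 773).

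Of the PMCA genes, Atp2b1, Atp2b2 and Atp2b4 were higher in excitatory than in inhibitory nuclei, and Atp2b3 was at similar levels in both. Atp2b1, the PMCA found in most tissues, was highest in glutamatergic-like nuclei, at 702 CPM in vehicle (694 to 710) and 773 in OLE (765 to 782). GABAergic-like nuclei had 235 (223 to 247) and 254 (242 to 266). The next highest type was microglia-like nuclei, at 521 (475 to 571) and 480 (431 to 533). Of the microglia-like Atp2b1 UMIs, 62.1% (vehicle) and 58.0% (OLE) were left after the neuronal profile was removed. With the profile of the clusters of few UMIs removed instead, 49.4% and 45.9% were left. Astrocyte-like nuclei (189 and 191 CPM) and OPC-like nuclei (186 and 247) were at the low end for Atp2b1, and their ranges overlapped.

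Atp2b2, a fast PMCA known from hair cells and Purkinje neurons, was also highest in glutamatergic-like nuclei, at 437 (431 to 443) in vehicle and 482 (476 to 489) in OLE. GABAergic-like nuclei followed at 293 (281 to 306) and 353 (338 to 367), and astrocyte-like nuclei at 198 (168 to 232) and 191 (163 to 222). The ranges of these 3 types did not overlap. After the neuronal profile was removed, 73.0% and 72.8% of the astrocyte-like Atp2b2 UMIs were left, while in oligodendrocyte-like nuclei 22.3% (vehicle) and 0.00% (OLE) were left.

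Atp2b3, a PMCA largely confined to the nervous system, was at similar levels in both kinds of neuron. It stood at 83.5 (80.9 to 86.2) and 88.2 (85.4 to 91.1) CPM in glutamatergic-like nuclei, and at 87.5 (80.7 to 94.8) and 90.2 (83.0 to 97.8) in GABAergic-like nuclei. The intervals of the neuronal types overlapped in each library. In astrocyte-like nuclei there were 3 UMIs of Atp2b3 in vehicle and 2 in OLE, which is 3.86 (0.795 to 11.3) and 2.29 (0.277 to 8.27) CPM. With nuclei thinned to 1000 UMIs, Atp2b3 was seen in 8.46% and 7.96% of glutamatergic-like nuclei and in 0.826% and 0.735% of astrocyte-like nuclei. Unthinned, the shares were 77.2% and 77.7% against 2.48% and 1.47%.

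Atp2b4, a PMCA known for its part in signalling domains of the membrane, differed between the kinds of neuron. Glutamatergic-like nuclei had 132 (129 to 136) CPM in vehicle and 151 (147 to 155) in OLE. GABAergic-like nuclei had 23.2 (19.8 to 27.1) and 23.3 (19.7 to 27.3), the lowest of the 6 types, with glial values between 35.4 and 65.4. The highest type was 6.07 times the lowest. The place of the GABAergic-like nuclei below glia did not hold in both libraries once a profile of other nuclei was removed from the glial sums. After the neuronal profile was removed, oligodendrocyte-like nuclei of OLE (11.0 CPM) and microglia-like nuclei of vehicle (20.6) were lower, and after removal of the profile of the clusters of few UMIs, these 2 had 0.00 CPM and each glial type was lower in at least 1 library.

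The mix of PMCA genes therefore differed between the types. Of the summed UMIs of the 4 genes in glutamatergic-like nuclei, Atp2b1 held 51.8% in vehicle and 51.7% in OLE, Atp2b2 32.2% and 32.3%, Atp2b4 9.77% and 10.1%, and Atp2b3 6.16% and 5.90%. The binomial intervals of the libraries overlapped for each of the 4 genes. In GABAergic-like nuclei Atp2b2 led at 45.9% (44.4 to 47.4) and 49.0% (47.5 to 50.4), Atp2b1 held 36.7% and 35.3%, Atp2b3 13.7% and 12.5%, and Atp2b4 3.63% and 3.23%. In microglia-like nuclei Atp2b1 held 70.1% (66.4 to 73.6) and 73.4% (69.2 to 77.3). In astrocyte-like nuclei Atp2b1 (43.8% and 44.5%) and Atp2b2 (45.8% and 44.5%) could not be ordered from these sums. With the neuronal profile removed, Atp2b2 led there at 53.0% and 50.6%, against 37.8% and 39.1% for Atp2b1. With the profile of the clusters of few UMIs removed instead, it held 60.1% and 55.5%, against 33.2% and 35.5%. With all nuclei kept, Atp2b1 led there at 45.4% and 49.0%, against 40.9% and 37.0% for Atp2b2. With nuclei thinned or given equal weight, Atp2b2 led there in vehicle and Atp2b1 in OLE. Their order in astrocyte-like nuclei thus depends on the processing. Division by gene length lowered the share of the long Atp2b2 everywhere and left Atp2b1 as the largest in all 6 types and both libraries, from 45.4% (GABAergic-like, OLE) to 78.2% (microglia-like, OLE). On that scale Atp2b3 held 28.0% and 26.5% in GABAergic-like nuclei and 12.0% and 11.5% in glutamatergic-like nuclei. Which gene leads in inhibitory nuclei thus depends on the scale.

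**Figure D2:**
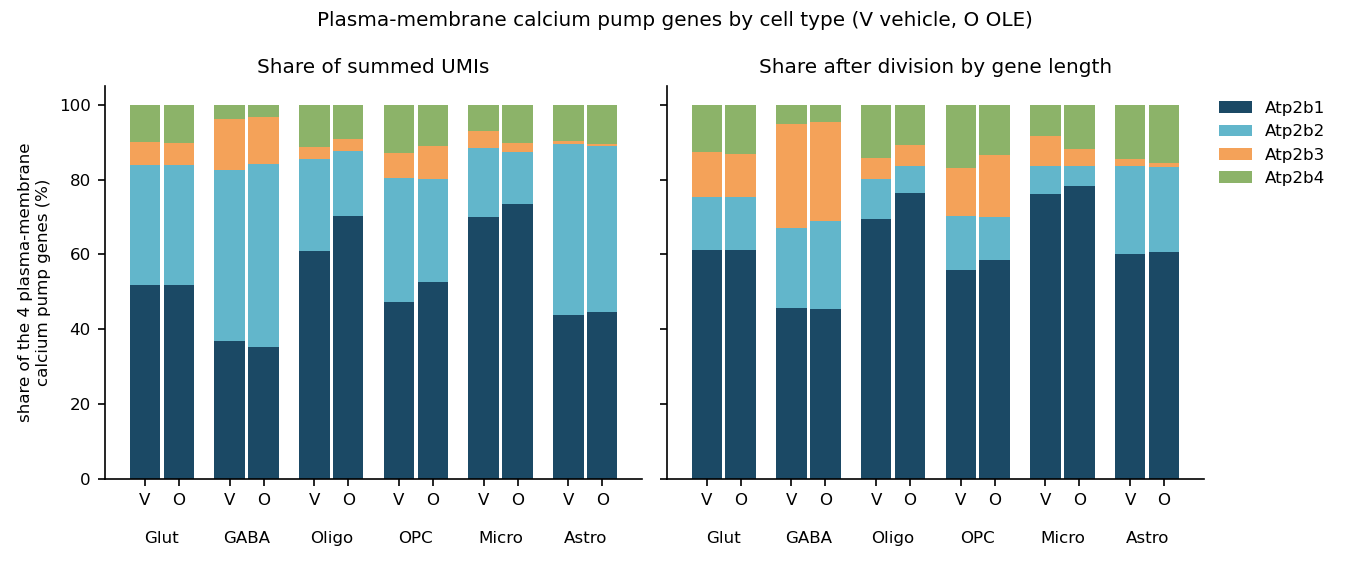
Share (y axis, %) of each plasma-membrane calcium pump gene in the sum of the 4 genes by cell type and library (V vehicle, O OLE), from summed UMIs on the left and after division of each gene by its length on the right. Among the types shown, GABAergic-like nuclei have the largest share of Atp2b3 (13.7% and 12.5% of UMIs) and the smallest of Atp2b4 (3.63% and 3.23%). Of these types, microglia-like nuclei have the largest share of Atp2b1 (70.1% and 73.4%). Vascular leptomeningeal-like nuclei, not shown, have 68.7% and 75.4% for Atp2b1.

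The glutamatergic-like nuclei formed 12 clusters, and the genes varied among these to different degrees. Atp2b4 varied most in vehicle, from 35.4 CPM in the cluster led by Cntnap5b and Epha3 to 214 in the cluster led by Thsd7b and Hs3st4, a range of 6.05-fold. In OLE its range was 4.96-fold, from 52.8 to 262, with the same cluster highest, and Atp1b2 ranged more widely there, by 5.71-fold (lowest value 5.25). Atp2b1 ranged from 385 to 1160 in vehicle and from 395 to 1360 in OLE, and was highest in both libraries in the cluster that holds Foxp2 and Syt6, genes of deep-layer cortical neurons, among its leading genes. Atp2a2 and Atp2b2 were highest in that cluster too, at 263 and 546 in vehicle and 339 and 663 in OLE. Atp1b1 varied least in vehicle, by 1.40-fold (188 to 263). The order of the 12 clusters was much alike in the libraries for Atp2a2 and Atp2b1 (Spearman's rho 0.97 each over 12 clusters, as a description) and less so for Atp1b2 (0.57), whose median over the clusters was 12.1 CPM in vehicle.

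Among GABAergic-like nuclei, 4 sub-clusters of 241, 197, 129 and 108 nuclei were Pvalb-like, Sst-like, Lamp5-like and Vip-like by their markers. Atp1b1 was highest in the Pvalb-like nuclei, which come from fast-spiking cells, at 428 CPM (404 to 453) in vehicle and 731 in OLE. The Lamp5-like nuclei were lowest in both libraries, at 290 and 473. Atp2b2 (325 and 410) and Atp2b3 (105 and 102) were also highest in the Pvalb-like nuclei. Atp2b4 was highest in the Sst-like nuclei, at 45.6 and 47.4, against 8.76 and 7.92 in the Pvalb-like nuclei. Atp1b2 was lowest in the Pvalb-like nuclei (6.21 and 11.3) and highest in the Vip-like nuclei (24.5 and 68.1). These ends of each order were the same in both libraries. In each sub-cluster and library Atp2b2 held the largest share of PMCA UMIs, between 44.6% and 52.9%, with no division by gene length.

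In the comparison of OLE with vehicle, the beta subunits and Atp2a2 stood higher in OLE in both neuronal types, while the PMCA genes differed less. Atp1b1 in glutamatergic-like nuclei was 219 CPM in vehicle and 344 in OLE, a log2(OLE/vehicle) of 0.65 (exact 95% binomial interval 0.61 to 0.69). In GABAergic-like nuclei Atp1b1 had a log2 ratio of 0.76 (0.69 to 0.83). Atp1b2 had 0.61 (0.45 to 0.77) in glutamatergic-like nuclei, from 12.1 and 18.4 CPM, and 1.06 (0.68 to 1.43) in GABAergic-like nuclei, from 13.3 and 27.7 (92 and 179 UMIs). With nuclei thinned to 1000 UMIs, the glutamatergic-like ratios were smaller, at 0.52 for Atp1b1 and 0.34 for Atp1b2. Atp2a2 had 0.30 (0.26 to 0.35) and 0.53 (0.42 to 0.64). The intervals of Atp2a2 in the neuronal types did not overlap, but with nuclei thinned to 1000 UMIs its value was 0.20 in the excitatory and 0.13 in the inhibitory nuclei, so the order turned and both fell under 0.25. An order of the neuronal types for Atp2a2 is therefore not read from these ratios. The PMCA genes in glutamatergic-like nuclei had log2 ratios of 0.14 (Atp2b1, 0.12 to 0.16), 0.14 (Atp2b2, 0.11 to 0.17), 0.08 (Atp2b3, 0.01 to 0.15) and 0.19 (Atp2b4, 0.14 to 0.24). In GABAergic-like nuclei the values were 0.11, 0.27, 0.04 and 0.00 in the same order, and the intervals of Atp2b1 (0.01 to 0.21) and Atp2b2 (0.18 to 0.35) lay above 0.

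A log2 ratio of 0.25 was taken as a mark of size, without a test, for genes whose UMIs in a cell type summed to 100 or more over the libraries. In glutamatergic-like nuclei 3 of the 7 genes were past it and higher in OLE, against 20.8% of all 14185 genes, and 0 were lower, against 3.19%. Their median was 0.19 and that of all genes 0.07. In GABAergic-like nuclei 4 of 7 were past it and higher, against 25.1% of 9634 genes, and 0 were lower, against 4.30%. There the median was 0.27 and that of all genes 0.08. Single genes stood high in these distributions. Atp1b1 had a higher log2 ratio than 97.5% of genes in excitatory and 98.1% in inhibitory nuclei, Atp1b2 than 96.8% and 99.7%, and Atp2a2 than 84.2% and 93.4%. The PMCA genes lay between 35.0% and 76.6%.

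**Figure D3:**
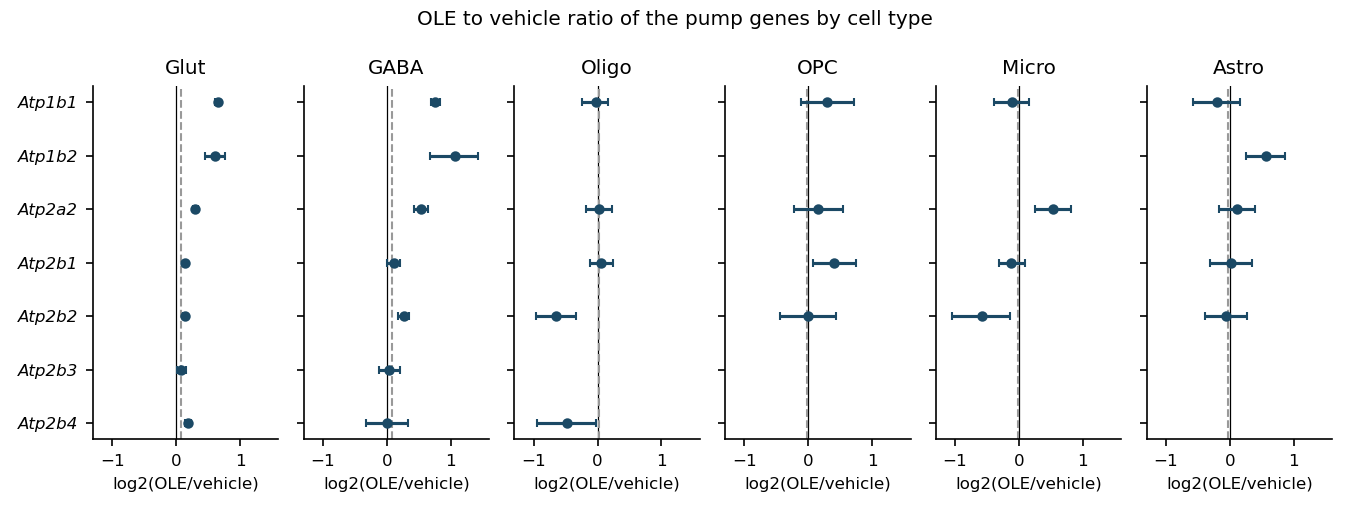
Log2 ratio of OLE to vehicle (x axis) for each pump gene (y axis) in 6 cell types, for genes with 100 or more UMIs there, libraries summed. Points are the ratios of summed UMIs per 1000000, bars are 95% binomial intervals, solid lines mark 0 and dashed lines the median of all genes. Atp1b1, Atp1b2 and Atp2a2 lie right of the PMCA genes in both neuronal types, with ratios from 0.30 to 1.06, and in glia the bars are wider.

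Gene length moved with these ratios. With all genes of glutamatergic-like nuclei split by length into 3 equal groups, the median log2 ratio was 0.17 in the shortest group (up to 16.4 kb), 0.07 in the middle group and 0.00 in the longest (from 50.5 kb). In these groups 35.3%, 16.1% and 10.9% of genes were past 0.25 and higher in OLE. In GABAergic-like nuclei the medians were 0.21, 0.08 and -0.01. The 4 PMCA genes all belong to the longest group in both neuronal types, and Atp1b2 belongs to the shortest. Atp2a2 belongs to the middle group in both. Atp1b1 belongs to the middle group in glutamatergic-like nuclei and to the shortest in GABAergic-like nuclei, where 44.6% of genes were past 0.25 and higher in OLE. The part of gene length in the ratios was not tested. The median mitochondrial share of a nucleus was 0.191% in vehicle and 0.192% in OLE for glutamatergic-like nuclei, and 0.268% and 0.278% for GABAergic-like nuclei.

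**Figure D4:**
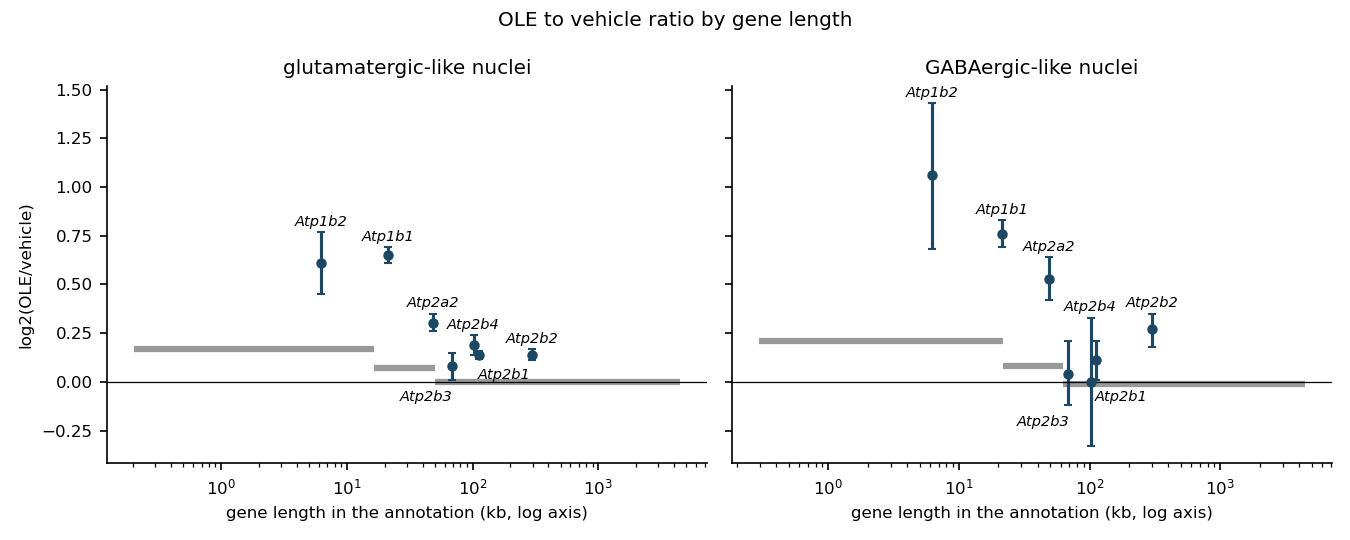
Log2 ratio of OLE to vehicle (y axis) of each pump gene against its length in the annotation (x axis, kb, log scale) in glutamatergic-like (left) and GABAergic-like nuclei (right), with 95% binomial intervals. Grey bars are the medians of all genes in 3 equal groups by length (0.17, 0.07 and 0.00 on the left, 0.21, 0.08 and -0.01 on the right). Atp1b1, Atp1b2 and Atp2a2 are the 3 shortest pump genes. All 7 pump genes lie above the bar of their group, Atp2b4 on the right (0.00) by little.

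The difference in Atp1b1 and Atp2a2 was also present inside each cluster of excitatory nuclei. The mix of clusters differed between the libraries, for example in the cluster led by Ndst4 and Dach1, with 132 nuclei in vehicle and 237 in OLE. Atp1b1 was higher in OLE in 12 of 12 clusters, with log2 ratios of 0.32 to 0.84, and all 12 intervals lay above 0. Atp2a2 was higher in 12 of 12, from 0.21 to 0.49, again with all intervals above 0. Atp1b2 was higher in all 7 clusters in which it had at least 100 UMIs, from 0.44 to 1.36. Of the 5 clusters with fewer UMIs, 3 had lower values in OLE (6.66 and 5.25, 12.1 and 11.5, and 15.1 and 14.3 CPM), with overlapping Poisson intervals. Of the PMCA genes, Atp2b2 was higher in 12 of 12 but with smaller ratios of 0.05 to 0.33, and Atp2b1 in 11 of 12, from -0.11 to 0.25. Atp2b3 was higher in 7 of 12, and none of its 12 intervals excluded 0. Atp2b4 ranged most widely, from -0.46 (-0.83 to -0.10) in the Reln-expressing cluster led by Cpa6 to 0.83 (0.40 to 1.27) in the cluster led by Cntnap5b and Epha3. The clusters of a library are not replicates, since they come from the same pool of 5 mice.

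**Figure D5:**
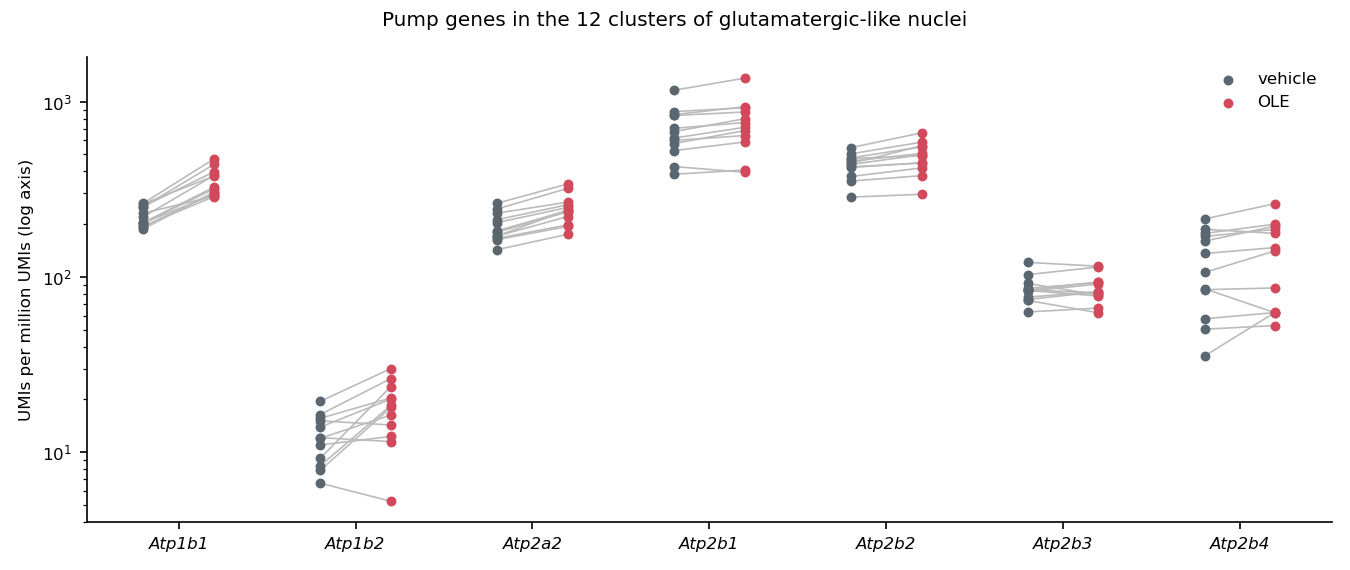
Level of each pump gene (y axis, UMIs per 1000000 UMIs, log scale) in the 12 clusters of glutamatergic-like nuclei, with vehicle in grey, OLE in red and a line for each cluster. The lines of Atp1b1 and Atp2a2 go up in 12 of 12 clusters, those of Atp2b3 in 7 of 12, and the vehicle values spread most for Atp2b4 (35.4 to 214).

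Atp1b1 and Atp2a2 were also higher in OLE in each of the 4 interneuron sub-clusters. Atp1b1 had log2 ratios of 0.77 (0.66 to 0.88) in Pvalb-like, 0.85 (0.72 to 0.99) in Sst-like, 0.70 (0.52 to 0.89) in Lamp5-like and 0.61 (0.38 to 0.84) in Vip-like nuclei. Atp2a2 had 0.54, 0.67, 0.42 and 0.53, and all 4 intervals lay above 0. Atp2b2 had 0.34, 0.31, 0.07 and 0.32, and the interval in the Lamp5-like nuclei (-0.13 to 0.27) included 0.

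In glia the counts were small, and the pump genes did not share a direction. In oligodendrocyte-like nuclei, 0 of the 5 genes with enough UMIs were past 0.25 and higher in OLE (18.1% of all genes were), and 2 were lower (10.8% were). These were Atp2b2, at 108 and 69.1 CPM and a log2 ratio of -0.65 (-0.97 to -0.33), and Atp2b4, at 49.3 and 35.4 and -0.48 (-0.95 to -0.02). The summed level of the neuronal list was also lower there in OLE, at 15270 in vehicle and 13490 in OLE, and its part in the lower values was not tested. Atp1b1 (-0.03, -0.24 to 0.17) and Atp2a2 (0.02, -0.18 to 0.23) had intervals around 0 that did not reach their unthinned ratios in either neuronal type. The ratios of Atp2a2 in neurons after thinning, given above, do lie inside its interval here. Of the Atp1b1 UMIs here, 0.00% (vehicle) and 2.53% (OLE) were left after removal of the profile of the clusters of few UMIs.

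In microglia-like nuclei, 1 of 4 genes was past 0.25 and higher in OLE (14.7% of all genes were) and 1 was lower (16.0% were). The higher gene was Atp2a2, with 198 UMIs in vehicle and 234 in OLE and a log2 ratio of 0.53 (0.25 to 0.81), above 97.0% of genes. The ratio was 0.59 after the neuronal profile was removed, with 75.6% (vehicle) and 80.7% (OLE) of the UMIs left. It was 1.48 after removal of the profile of the clusters of few UMIs, with only 25.1% and 50.2% left. The lower gene was Atp2b2, at 137 and 91.8 CPM and -0.58 (-1.04 to -0.14), of which 10.6% (vehicle) and 0.00% (OLE) of the UMIs were left after removal of the neuronal profile. Atp1b1 had -0.11 (-0.39 to 0.16) and Atp2b1 -0.12 (-0.32 to 0.09).

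In astrocyte-like nuclei, 1 of 5 genes was past 0.25 and higher in OLE (15.4% of all genes were) and 0 were lower (17.6% were). This was Atp1b2, the beta subunit that marks these cells, counted 148 times in vehicle and 245 times in OLE, a log2 ratio of 0.56 (0.26 to 0.86), above 97.1% of genes. Its value was 0.54 after removal of either profile. Atp1b1 stood at -0.20 (-0.57 to 0.16), and Atp2a2, Atp2b1 and Atp2b2 had values between -0.05 and 0.11. In OPC-like nuclei, 2 of 4 genes were past 0.25 and higher in OLE (15.6% of all genes were) and 0 were lower (16.5% were). These were Atp2b1 at 0.41 (0.08 to 0.75) and Atp1b1 at 0.30 (-0.12 to 0.72), the latter with an interval that includes 0 and a negative value of -0.32 when nuclei were thinned to 1000 UMIs.

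Most unnamed nuclei were in 3 clusters with far fewer UMIs than the named neurons, and 2 of these were each mostly from 1 library. The largest held 2231 nuclei of vehicle and 304 of OLE, with a median of 2282 UMIs, and the next 239 and 1717, with a median of 5026. Atp1b1, Atp1b2 and Atp2a2 stood higher in these 2 than in the named neurons. Atp1b1 was at 819 (vehicle) and 822 (OLE) CPM in the largest and 823 and 867 in the next. Atp1b2 was at 56.7 and 57.1 in the largest. There Atp2b1 (699 and 693), Atp2b2 (341 and 341) and Atp2b3 (49.7 and 52.2) were not higher than in glutamatergic-like nuclei, and Atp2b4 was at 161 and 161. Atp2a2 was at 442 and 452 in the largest and 456 and 451 in the next. Atp1b1 and Atp2a2 were thus higher in these clusters than in glutamatergic-like nuclei and hardly differed between the libraries within a cluster, with log2 ratios of 0.01 and 0.08 for Atp1b1 and 0.03 and -0.02 for Atp2a2. The ratios of the PMCA genes lay between -0.14 and 0.13 in these 2 clusters. The smallest of the 3, with 373 and 429 nuclei and a median mitochondrial share of 5.61%, had larger log2 ratios, at 0.50 for Atp1b1, 1.01 for Atp1b2, 0.32 for Atp2a2, 0.35 (0.17 to 0.52) for Atp2b1 and 0.72 (0.34 to 1.12) for Atp2b4, and -0.05 for Atp2b2. The remaining unnamed cluster, of 65 and 76 nuclei led by Vwc2l and Sntb1, had ratios of 0.61 for Atp1b1 and 0.29 for Atp2a2. Whether RNA from the same source is also in the neuronal nuclei, and in different amounts in the libraries, was not tested. If the largest of these clusters is counted as glutamatergic, the log2 ratios in that type become 0.31 for Atp1b1, 0.17 for Atp1b2 and 0.14 for Atp2a2, and 1 of the 7 genes is past 0.25. With the 2 largest counted as glutamatergic, a choice made after seeing the data, the values are 0.59, 0.63 and 0.31, and 3 of the 7 genes are past 0.25.

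A wider list of 26 genes of the same physiology held the sodium pump regulators (Fxyd and Nkain genes) and Atp1b3, other calcium pumps, sodium-calcium exchangers, calmodulins, calcium release channels and the mitochondrial uniporter Mcu. In glutamatergic-like nuclei 23 had enough UMIs, of which 5 were past 0.25 and higher in OLE and 0 lower (20.8% and 3.19% of all genes), with a median log2 ratio of 0.10. In GABAergic-like nuclei the counts were 6 and 2 of 19 (25.1% and 4.30% of all genes), and in oligodendrocyte-like nuclei 3 and 2 of 17 (18.1% and 10.8%). In OPC-like nuclei they were 3 and 1 of 14 (15.6% and 16.5%), in microglia-like nuclei 5 and 4 of 14 (14.7% and 16.0%), and in astrocyte-like nuclei 4 and 4 of 13 (15.4% and 17.6%). Among the highest ratios in glutamatergic-like nuclei was that of Calm3, which encodes calmodulin, the activator of the PMCA pumps, at 0.36 (0.23 to 0.49). The lowest were those of Fxyd1, a sodium pump regulator, at -0.20 (-0.51 to 0.10), and Itpr2, a calcium release channel, at -0.17 (-0.40 to 0.06), and both intervals include 0. Atp1b3 differed from the other beta subunits, with -0.07 (-0.14 to 0.01), at 69.6 CPM in vehicle and 66.4 in OLE.

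The genes most like each pump gene over cell types were found from the correlation of log2(CPM + 10) over 14 points, 7 cell types in each library, among 11398 genes with at least 500 UMIs. Points of a cell type share their nature and points of a library their depth, so these values only describe the pattern. Atp1b2 was most like Clu (r = 0.976), Sparcl1 (0.974) and Ndrg2 (0.958), all 3 known as astrocyte-rich genes. Atp2b2 was most like Dab1 (0.984), Dok5 (0.960) and Gabbr2 (0.955). Atp2b3 followed Gabrb2 (0.982), a GABA receptor subunit gene, with St6gal2 (0.981) and Rimbp2 (0.979). Atp2b4 was most like Kcnv1 (0.953), Ext1 (0.935) and Baiap2 (0.922), and Atp2b1 most like Nptn, Gm12371 (0.939 each) and Usp43 (0.938). Nptn encodes neuroplastin, known as a partner protein of PMCA pumps. The best values of Atp1b1 (Scml4 0.918, Pde11a 0.893, Hrh3 0.890) and Atp2a2 (Gm44511 0.908, Usp2 0.846, Cwc25 0.840) were lower than those of the other genes.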

How the data were processed

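Nuclei from frozen entorhinal cortex were sequenced by the authors with 10x 3′ v3 chemistry, in 1 library for each condition. The authors used Cell Ranger 3.0.1 with a pre-mRNA reference of mm10, so that introns were counted, and deposited whole-number UMI counts per gene and nucleus, without normalization. The study's methods state that doublets were removed with Seurat 4.0.4, and no caller was given in the sources used here. Here, nuclei in the top 5% of Scrublet scores (scanpy 1.11.5) were left out, 331 in vehicle and 289 in OLE, since the automatic threshold called 0.104% and 0.130%. Counts were normalized by SCTransform (3000 genes, Seurat 5.3.0) and clustered (30 components, 20 neighbours, Louvain, resolution 0.4) into 25 clusters. GABAergic-like nuclei were clustered again from log-normalized counts (2000 genes, 15 components, resolution 0.3).

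A cluster took the name of the class with the highest marker level, where at least 3 markers reached 20% of their highest cluster and were seen in 10% of nuclei. It stayed unnamed where its median UMIs were under 1/3 of that of its class, or where more markers of another class than of its own were among its top 10 genes. This rule was set after the clusters had been seen. The members and lists were chosen with earlier results of these data known. All 7 members are described in every cell type, and of the wider list the 2 highest and 2 lowest ratios in glutamatergic-like nuclei among genes with at least 200 UMIs are named, except 1 that is not reported here. UMIs were summed per cell type and library. Intervals are 95% exact Poisson (levels) or binomial (shares and ratios). No test was run, as each condition had 1 library, and nuclei were not used as replicates. Alternatives changed doublet removal, normalization, resolution, scaling, weighting, depth (each nucleus thinned to 1000 UMIs, the 166 and 282 shallower ones left out), mitochondrial share (5%), neuronal RNA, unnamed clusters and the size mark (0.5). Gene spans come from GENCODE vM21, to which 31011 identifiers (99.9%) could be assigned. The interval and ratio functions were tested on simulated data. Python 3.11.15 and R 4.3.3 were used. Sodium pump catalytic subunits were not analysed here.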

Additional observations from a re-analysis of the deposited data

How the results depend on the processing

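In GABAergic-like nuclei 3 to 5 genes were past 0.25 and higher in OLE under the alternatives. In glutamatergic-like nuclei the 3 genes past 0.25 and higher in OLE became 1 with the largest unnamed cluster counted as glutamatergic, stayed at 3 with the 2 largest counted so (an alternative chosen after seeing the data), and were 2 with thinning, with scaling by the median ratio of all genes or at a mark of 0.5. In oligodendrocyte-like nuclei the 2 lower genes became 1 after removal of the neuronal profile or at a mark of 0.5, and 0 (with 1 higher) after removal of the profile of clusters of few UMIs, an alternative chosen after seeing the data. In OPC-like nuclei the 2 higher genes became 4 with all nuclei kept, 1 with equal weight for each nucleus, with thinning (with 1 lower) or with the neuronal profile removed, and 0 at 0.5, and Atp1b1 reversed to -0.32 with thinning. In microglia-like nuclei the 1 lower gene became 2 with log-normalization, equal weight, thinning or the neuronal profile removed. In astrocyte-like nuclei the higher genes became 4 with all nuclei kept, and the 0 lower genes became 1 with equal weight or either profile removed and 2 with thinning. The cell types led by Atp2b2 among PMCA UMIs in both libraries went from 1 to 2 without nuclei of 5% or more mitochondrial UMIs or with either profile removed. Astrocyte-like nuclei were the type added, while with all nuclei kept Atp2b1 led in them in both libraries. Per kb of gene length the count went to 0. The cause of these changes was not tested. No library could be left out, and no paired analysis was possible because each condition has 1 library. Depth limits the glial values, where each member but Atp2b1 in oligodendrocyte-like nuclei had under 500 UMIs in a library.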
